A study of Mus musculus with 125 samples.

Results

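The Iroquois homeobox genes Irx1, Irx2, Irx3, Irx4, Irx5 and Irx6 were followed through the endothelium of the developing and adult mouse. These 6 genes were taken out of 21883 protein-coding genes of the GRCm38.p6 gene table, by symbol. They were chosen by measured values of these same libraries, from earlier results on their peaks and transcripts, so every level below is a description and none is tested. Peaks were read at each gene and within 50 kb on either side of it, and transcripts were read as unique molecular identifiers (UMIs, 1 tag per captured RNA molecule) in brain cells.

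Iroquois proteins are transcription factors of the TALE homeobox class, whose members bind DNA through a homeodomain with a loop of extra residues. Mammals carry them in a pair of clusters, Irx1, Irx2 and Irx4 on one chromosome and Irx3, Irx5 and Irx6 on another, and neighbouring members often share long-range control elements. The family is known for patterning the neural tube, heart, limb, kidney and retina. Irx4 is known as a gene of the ventricular heart muscle, Irx3 and Irx5 act in the cardiac conduction system and its repolarisation, and Irx5 and Irx6 are known in retinal bipolar cells.

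The study profiled open chromatin in nuclei labelled as endothelial and in input nuclei of the same organs with ATAC-seq, which cuts accessible DNA with a transposase. Brain, heart and trunk were taken at E12 (tamoxifen to the dam at E10.5, collection at E12.5), and heart, lung, liver, kidney, brain and retina at P6 (tamoxifen at P1 and P3; the protocol gives collection at P7) and in adults (tamoxifen 7 days before isolation). All of these animals, inputs included, received tamoxifen and were kept when GFP was seen in their vessels; the driver of that reporter, the strain, and whether animals were pooled are not given in the sources used here. Brain cells enriched with anti-CD31 beads gave 1 single-cell RNA library per age, from whole brain in embryos (E9.5, E12.5 and also E16.5) and from cortex after birth (P8 and adult).

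The 37 endothelial lists comprised 11 at E12, 14 at P6 and 12 in adults, and the 29 input lists comprised 3, 16 and 10. Lists held 19464 to 144197 peaks. Endothelial lists had a median of 101233 peaks at E12, 69068 at P6 and 36756 in adults, so age and list length moved together and their parts cannot be told apart. All 6 endothelial markers (Cdh5, Pecam1, Egfl7, Esam, Tie1 and Kdr) had a peak in every endothelial list. Of the inputs, all had 6 of 6 at E12, and they had 4 to 6 at P6 and 1 to 6 in adults, so at E12 these peaks did not set endothelium apart. Markers of the organs' other cells also had peaks in many of them. In heart endothelial lists, 2 to 6 of 6 cardiomyocyte markers had a peak at E12, 6 at P6 and 0 to 1 in adults. The E12 count did not set heart apart. Over all 11 E12 endothelial lists, Tnnt2 and Actn2 had a peak in 11, Myh6, Myl2 and Mybpc3 in 8 and Tnni3 in 3. Over all 12 adult endothelial lists, Tnnt2 had one in 8 and Actn2 in 6. In a mixed sample, fewer nuclei of a type and less signal per nucleus cannot be told apart. E12 heart endothelial replicate 3, with 39096 peaks, and P6 brain endothelial replicate 1, with 27160, were the shortest lists of their groups. The headers hold forms of aligned-file name that went with organ: one was in all 12 heart lists, another in most brain lists and another in all lung endothelial and most lung input lists, and none of the 3 occurred in another organ. For the lists with these forms processing and organ cannot be told apart. The P6 brain endothelial group was split: 2 of its lists had a form also found in retina lists. In lung, 1 adult input had a form also found in kidney and liver lists.

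On chromosome 13 the annotated genes lie at 71958232 to 71963723 (Irx1), 72624430 to 72634196 (Irx2) and 73259589 to 73269622 (Irx4). On chromosome 8 they lie at 91798511 to 91801654 (Irx3), 92357796 to 92361456 (Irx5) and 92674289 to 92680956 (Irx6). The deposited peaks are in mm10, the same assembly. RefSeq promoter sequences matched Irx2, Irx3 and Irx4. The 5′ ends of Irx2 and Irx4 in that table, at 72628820 and 73260497, lie inside the gene spans given above and not at their ends. The bases just before these 5′ ends are shown because 2 of these ends had a peak within 500 bp in most lists and the other, at Irx4, in none of the endothelial ones. Capitals mark CpG dinucleotides, which are dense in promoters that tend to stay unmethylated. The first sequence is all 250 bases upstream of Irx3 (chr8:91801655-91801904, minus strand), and the others are the last 30 bases upstream of Irx2 (chr13:72628790-72628819, plus strand) and of Irx4 (chr13:73260467-73260496, plus strand).
Irx3: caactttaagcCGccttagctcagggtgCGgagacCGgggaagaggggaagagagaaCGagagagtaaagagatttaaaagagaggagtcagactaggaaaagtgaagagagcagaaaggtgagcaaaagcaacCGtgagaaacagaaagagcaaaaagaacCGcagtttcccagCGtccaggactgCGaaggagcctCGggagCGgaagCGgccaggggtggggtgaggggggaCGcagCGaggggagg
Irx2: gaaactCGagCGctccttcctcaactcctc
Irx4: ccaCGtcaCGcCGgtgCGggctCGgctgac

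Over the 250 upstream bases, Irx4 had 22 CpGs, Irx2 had 19 and Irx3 had 13, where the median of all 32851 promoters in the table was 6. The GC content was 68.8% for Irx4, 68.4% for Irx2 and 56% for Irx3. The palindrome ACANNTGT, searched on both strands as were the other motifs, was in none of the 3 and in 6.31% of all promoters. The ETS motif CCGGAAGT, a family that includes endothelial regulators, was in none of the 3 and in 2.88% of all promoters. The GC box GGGCGG occurred 2 times at Irx2 and 2 times at Irx4, and was in 32.7% of all promoters; a CCAAT box (33.8% of all) was found only at Irx2 among these 3. Absent letters say nothing about the factors themselves. The open chromatin did not follow CpG number. A peak lay within 500 bp of the 5′ end of Irx3 in 33 of 37 endothelial lists, of Irx2 in 28 and of Irx4 in 0, against 26, 24 and 5 of 29 inputs.

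A peak overlapping a gene or within 500 bp of it is called its gene peak. At the 50 kb limit on the lower-coordinate side of Irx3, the last region inside, at 48.7 kb, was in 0 endothelial lists and 4 inputs, and the first outside, at 50.6 kb, in 16 and 9. On the higher-coordinate side of Irx6, the last inside, at 42.2 kb, was in 15 and 9, and the first outside, at 53.4 kb, in 0 and 1. At E12, Irx1, Irx2, Irx3, Irx4 and Irx6 had a gene peak in all 11 endothelial lists and Irx5 in 8, where 63.1% of all protein-coding genes had one in all 11. All 6 members also had one in 3 of 3 E12 inputs, so these peaks did not set endothelium apart. The organs sampled differed between E12 and the later ages. At P6 no Irx gene had a gene peak in all 14 endothelial lists (54.8% of all genes did): Irx3 had one in 13, Irx2 in 12, Irx4 in 11, Irx5 in 8, Irx6 in 7 and Irx1 in 5. In adults none had one in all 12 (46.1% of all genes did), and the order was Irx3 with 9, Irx5 with 7, Irx2 with 5, Irx4 with 2, Irx6 with 1 and Irx1 with 0.

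In the full lists Irx1 was the member with no adult endothelial gene peak. Its gene peak was in every E12 endothelial list and in no adult one, which was true of 0.672% of all genes, while 25.6% of all genes had no gene peak in any adult endothelial list. The E12 peaks at Irx1 were shallow. Their fold over the local background, as the authors' peak caller gave it, ran from 2.32 to 3.23 and their −log10 q from 1.34 to 7.15, and a median of 36.6% of the peaks in the same list had a lower −log10 q. With a −log10 q of at least 5 required, Irx1 had a gene peak in 5 of 11 E12 endothelial lists, 1 of 14 at P6 and 0 of 12 in adults. At that −log10 q Irx6 also had none in adults, after 9 of 11 at E12 and 4 of 14 at P6. Among the 19464 strongest peaks of each list, the length of the shortest list, neither Irx1 nor Irx6 had one at any age in endothelium, so their change with age could not be followed at equal list length.

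Irx2 had the gene peaks with the highest median rank by −log10 q in the family at E12. Their fold was 3.06 to 4.63, and a median of 82.6% of peaks in the same list had a lower −log10 q. At equal list length it was in 9 of 11 E12 endothelial lists, 5 of 14 at P6 and 3 of 12 in adults. Irx3 went the other way at equal length, with 1 of 11 at E12, 3 of 14 at P6 and 5 of 12 in adults. The fall of the Irx3 count with age in the full lists was thus not seen among the strongest peaks. This cut kept a smaller part of the E12 lists (median 101233 peaks) than of the adult ones (36756). The share of all genes with such changes at this cut is not given here.

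**Figure D1:**
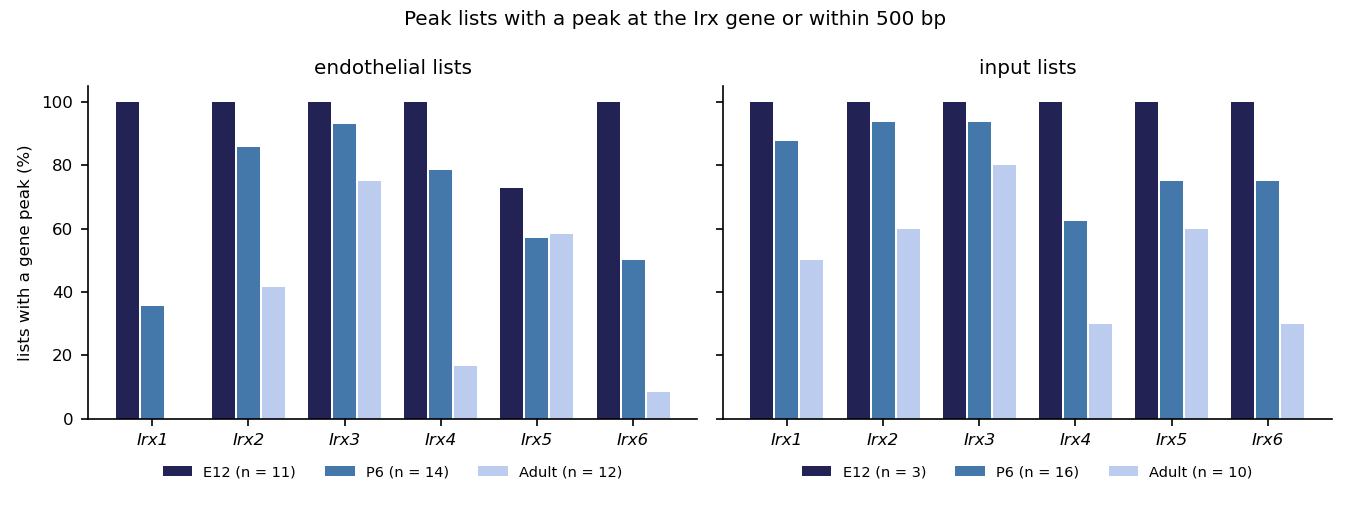
Share of peak lists (%) with a gene peak, for each Irx gene and age, in endothelial lists (left; 11, 14 and 12 lists) and input lists (right; 3, 16 and 10 lists). Bars start at 0. The endothelial bar of Irx1 goes from 11 of 11 lists at E12 to 0 of 12 in adults, while 5 of 10 adult inputs keep a peak there.

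Input nuclei hold all cells of the organ. In adult inputs Irx3 had a gene peak in 8 of 10 lists, Irx2 and Irx5 in 6 each, Irx1 in 5, and Irx4 and Irx6 in 3 each. Over all ages the counts in endothelial and input lists were 16 of 37 against 22 of 29 for Irx1, 28 against 24 for Irx2, 33 against 26 for Irx3, 24 against 16 for Irx4, 23 against 21 for Irx5 and 19 against 18 for Irx6. These totals mix ages in different proportions, since 11 of the 37 endothelial lists and 3 of the 29 inputs are from E12. Adult input lists were longer, with a median of 48590 peaks, and a median of 64.1% of all genes had a gene peak in them, against 59.4% in adult endothelial lists.

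Peaks within 50 kb of each gene were counted per 10000 peaks of the list, which takes out list length in part. The E12 endothelial mean lay above the adult mean for all 6 members (35.3% of all genes). The input means were also higher at E12 than in adults for all 6, from 0.324 against 0.224 at Irx1 to 0.749 against 0.222 at Irx4. Only brain and heart were sampled at both E12 and in adults, so these pooled differences mix age with organ. Within brain endothelium the Irx3 mean was 0.554 at E12 and 0.612 in adults, and the other members were lower in adults. Within heart endothelium the Irx6 mean was 0.619 at E12 and 1.28 in adults, and the other members were lower in adults. Each of these adult means rests on 2 lists. For Irx1 the 11 E12 lists held 1 to 5 such peaks and the 12 adult lists 0, and it was the only member in which every E12 list lay above every adult list (1.45% of all genes). The normalised mean was 0.343 ± 0.116 (SD, n = 11) at E12 against 0 in adults. The difference was largest for Irx4 in this window, 0.637 ± 0.188 (SD, n = 11) against 0.0626 ± 0.162 (SD, n = 12), followed by Irx1 and then by Irx2 with 0.429 ± 0.14 against 0.114 ± 0.146. The order depended on the window: within 100 kb Irx6 had the largest difference, 0.814, and Irx4 the smallest, 0.248. For Irx3 and Irx5 the adult spread covered the E12 mean: Irx3 had 0.567 ± 0.0636 against 0.426 ± 0.315, and Irx5 had 0.61 ± 0.194 against 0.52 ± 0.273. Irx6 had 0.569 ± 0.107 against an adult mean of 0.319, with the adult values spread from 0 to 1.54. The median E12-minus-adult difference over all genes was -0.116 and over the 6 members 0.283. With the 19464 strongest peaks per list the difference turned negative for Irx3 (-0.0195), Irx4 (-0.0856), Irx5 (-0.035) and Irx6 (-0.0662) and was 0 for Irx1. The 35.3% and the median of -0.116 are from the full lists. The share of all genes with a negative difference at this cut is not given here, so the turn cannot be read as particular to the members. Irx2 kept an E12 excess among the strongest peaks, 0.292.

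**Figure D2:**
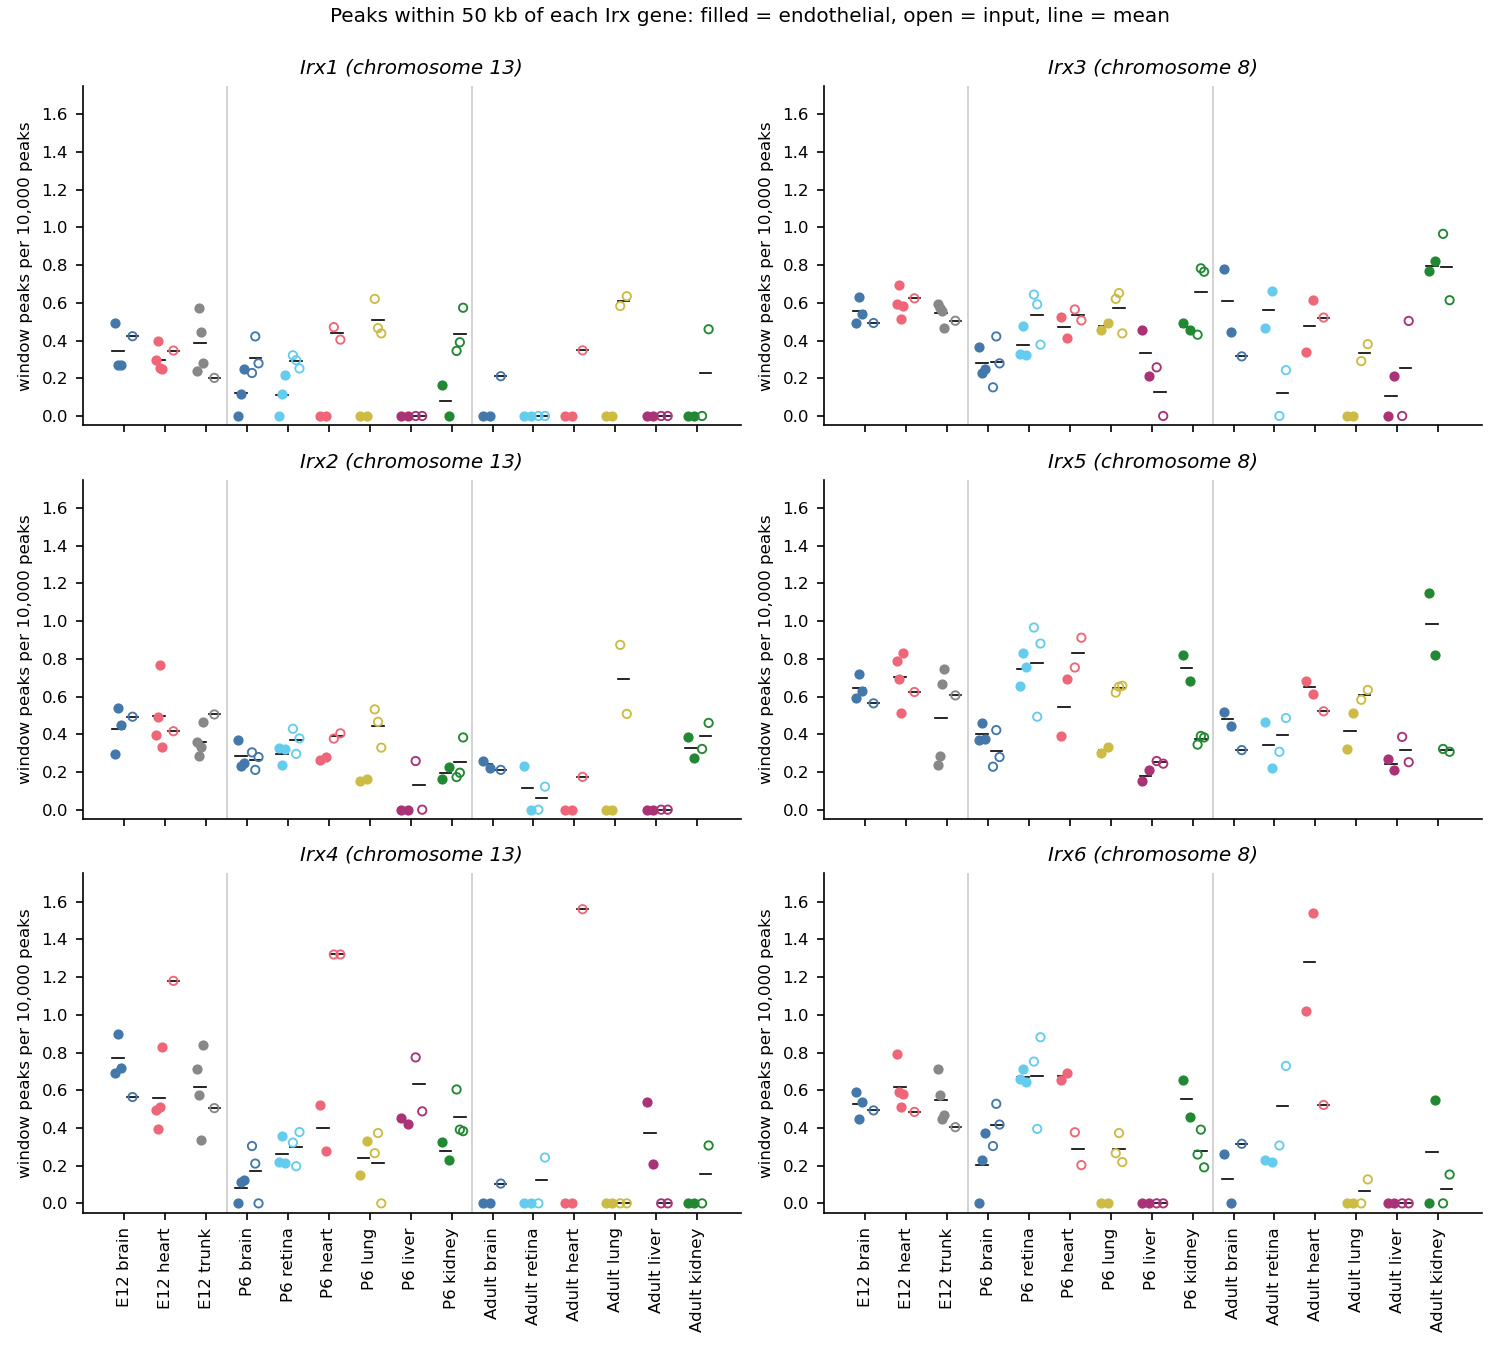
Peaks within 50 kb of each Irx gene per 10000 peaks of the list, one point per library (filled, endothelial; open, input), with a black line at each group mean, for 15 organ-by-age groups. Grey lines separate E12, P6 and adult. The filled Irx1 points are all at 0 in adults, the open heart points stand highest for Irx4, and the adult heart endothelial points stand highest for Irx6.

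In adults the organs with an endothelial gene peak differed between members. Each organ had 2 lists, and the share of all genes with such patterns is not given here. Irx3 had a gene peak in both endothelial lists of brain, retina, heart and kidney, in 1 of 2 of liver and in 0 of 2 of lung. Irx2 was found in both lists of brain and kidney and 1 of 2 of retina, and had no window peak in adult heart, lung or liver endothelium. Irx5 was found in both lists of brain, heart and kidney and in 1 of 2 of retina, but in neither of lung and liver. Both adult lung inputs had a gene peak at Irx2, Irx3 and Irx5, and the adult heart input had one at Irx2. Adult liver inputs had none at Irx2 or Irx5 and 1 of 2 had one at Irx3, so these liver absences were shared with the whole organ. In the retina list of Irx5, replicate 1, the fold was 2.95, and in the brain lists it was 2.52 and 2.69, where 4.92% and 29.7% of the peaks in those lists had a lower −log10 q. Irx5 was strongest in kidney, with folds of 3.61 and 4.3.

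Irx4 was found in adult endothelium only in liver. Both adult liver endothelial lists had a gene peak there, with folds of 4.9 and 4.68 and −log10 q of 8.17 and 9.95, and the other 10 adult endothelial lists had no Irx4 window peak. Both adult liver inputs held 0. The peak lay in a region at chr13:73263030-73264641, inside the gene and past the 5′ end of the promoter table at 73260497. The same region was open at P6 in both endothelial lists of liver, heart, lung and kidney and in all 3 of retina, in 0 of 3 of brain, and in all 11 at E12, so the liver lists were the ones that kept it in adults. Of 6 hepatocyte markers, 2 to 3 had a peak in adult liver endothelial lists. That count was not particular to liver, since Apoa1 and Hnf4a each had one in 10 of 12 adult endothelial lists. Of 6 microglia markers (C1qa, C1qb, Csf1r, Cx3cr1, P2ry12 and Tyrobp), 4 had a peak in both adult liver endothelial lists. The endothelial lists of the other adult organs had 0 to 3 of these, and both adult liver inputs 3. The part of either cell class in the result was not tested.

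Heart inputs carried more peaks at Irx4 than the other inputs of the same age. The E12 heart input had 17 window peaks, the P6 inputs 14 and 13 and the adult input 9. Heart endothelial lists had 5, 4, 2 and 10 at E12, 4 and 2 at P6, and 0 and 0 in adults. The endothelial and input values did not overlap at any of these ages. Per 10000 peaks, inputs lay above all endothelial lists in the same way for 15.3% of all genes at E12, 27.1% at P6 and 30.9% in adults. All heart inputs had peaks at 6 of 6 cardiomyocyte markers, and the endothelial lists at 2 to 6 at E12, 6 at P6 and 0 to 1 in adults. Most of these markers also had peaks in E12 endothelial lists of other organs. The part of heart muscle nuclei in the result was not tested. At P6 heart, every input lay above every endothelial list for Irx1, Irx2, Irx4 and Irx5, within that 27.1%.

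In lung, endothelium and input differed for several members. The adult lung endothelial lists were short, with 30974 and 19464 peaks against 34327 and 78793 in the inputs. They had 0 window peaks at Irx1, Irx2, Irx3, Irx4 and Irx6 and 1 each at Irx5. The 2 adult lung inputs had 2 and 5 at Irx1, 3 and 4 at Irx2, 1 and 3 at Irx3, and 2 and 5 at Irx5. Per 10000 peaks, both inputs lay above both endothelial lists for these 4 genes, as for 14.4% of all genes. At P6 every lung input lay above both endothelial lists for Irx1, Irx2, Irx5 and Irx6 (19.2% of all genes): at Irx1 the inputs held 7, 5 and 4 and the endothelial lists 0 and 0. At P6 both lung endothelial lists had a gene peak at Irx2, Irx3 and Irx4. Lung epithelial markers had peaks at 6 of 6 genes in P6 inputs and 3 of 6 in P6 endothelial lists. Among these markers, Sftpc and Abca3 had a peak in all 14 P6 endothelial lists, whatever the organ.

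In P6 retina the 3 endothelial lists had 6, 7 and 7 window peaks at Irx5 and 6, 6 and 6 at Irx6. The 3 retina inputs had 9, 5 and 7 and 7, 4 and 7. The median gene had 3 to 8 window peaks, depending on the list, in P6 endothelium. These levels were not particular to retina. Per 10000 peaks, the P6 endothelial mean at Irx5 was 0.748 in retina and 0.752 in kidney. At Irx6 it was 0.672 in retina and 0.674 in heart. Endothelial and input values overlapped for both genes. Retinal neuron markers had peaks at 6 of 6 genes in these endothelial lists, and their part in the result was not tested. In the adult retina the endothelial lists had 2 and 1 at Irx5 and 1 and 1 at Irx6.

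The peaks of all 66 lists merged into 120 regions in the 6 windows, out of 514158 in the genome. A region was called open in a group when at least 2 of its libraries (1 where the group had 1) had a peak there. Of the 93 Irx regions seen in at least 2 lists, 11 were seen in endothelial lists only (10.3% of such regions in the genome) and 33 in inputs only (31.8%), so the Irx windows were near the genome on both counts. Of 43 regions open in E12 endothelium, 15 had no peak in any P6 or adult endothelial list (22.6% in the genome) and 11 were open in an adult endothelial group (37.3%). Among these windows, Irx5 had 11 regions open at E12, 8 at P6 and 3 in adults, and Irx1 had 3, 1 and 0.

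Only 1 of the 93 Irx regions seen in at least 2 lists had a peak in all 37 endothelial lists (1.08%, against 3.05% of such regions in the genome). It lay at chr8:92355530-92356686, -1.11 kb from Irx5 (minus marks the lower-coordinate side). There it covered the higher-coordinate limit of Crnde (chr8:92326031-92356120), a long noncoding RNA gene next to Irx5, whose strand the gene table does not give. It had a peak in all 29 inputs too, with folds of 3.51 to 8.4. The nearby region over the lower-coordinate limit of Irx5, chr8:92357293-92358279, was in 23 endothelial lists and 20 inputs. It was missing from all P6 and adult lung and liver endothelial lists, and present in 3 of 3 P6 and 2 of 2 adult lung inputs. The shared region was thus open in every organ, and the region over the gene varied between them.

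Regions open in 1 organ's endothelium and in no endothelial list of another organ at that age made up 7 of 94 openings at E12 (7.45%, against 10.9% in the genome), 9 of 62 at P6 (14.5% against 12%) and 4 of 23 in adults (17.4% against 15%). All 7 at E12 were in heart, out of 33 heart-open Irx regions (21.2%, where the genome share was 20.7%). At P6, 6 were in retina, out of 18 (33.3% against 23.8% in the genome), and 1 each near Irx5 were in brain (of 10, against 12.1% in the genome), lung (of 7, against 8.12%) and kidney (of 9, against 3.29%). In adults liver had 1 of 2, at Irx4 (18% in the genome), and heart 1 of 6, near Irx6 (6.34%). Adult kidney had 2 of 6, near Irx3 and near Irx5 (5.22% in the genome). These adult and single-region shares rest on 10 or fewer regions each.

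A region seen mostly in heart lay 22.4 kb from Irx6, at chr8:92703359-92703912. It had a peak in E12 heart endothelial replicates 1, 2 and 4 (folds 3.7, 3.96 and 4.8), both P6 lists (7.2 and 4.67) and both adult lists (4.36 and 6.85). Outside heart endothelium it was seen in 1 P6 kidney endothelial list (fold 3.3) and the adult heart input (5.21), and in no other list. The E12 and P6 heart inputs did not have it. Cardiomyocyte markers had peaks at 6 of 6 genes in all heart inputs, at 2 to 6 in E12 heart endothelial lists, 6 at P6 and 0 to 1 in adults. As given above, the E12 endothelial count did not set heart apart. The part of heart muscle nuclei in the result was not tested. The heart lists were those with a form of aligned-file name of their own. Adult heart endothelium had 3 and 5 Irx6 window peaks against 3 in the input, and 0 to 2 in each other adult endothelial list.

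A second distal region lay 16.9 kb from Irx3, at chr8:91818562-91819478, within the long noncoding genes Irx3os and Gm39223. It was in 22 endothelial lists and 7 inputs. All 11 E12 lists had it, as had both P6 lists of heart, lung, liver and kidney and 1 of 3 of retina. It was in 0 of 3 P6 brain lists, and among adults only in both kidney lists. Its folds in adult kidney endothelium were 5.65 and 7.21, and in P6 kidney 6.79 and 7. Kidney inputs had it too, 3 of 3 at P6 and 1 of 2 in adults. Of 6 kidney tubule markers, 3 to 5 had peaks in adult kidney endothelial lists. Over all 12 adult endothelial lists, Cdh16 had a peak in 12, Slc34a1 in 11 and Slc12a1 in 8. The part of tubule nuclei in the result was not tested. The neighbouring region 21.1 kb from Irx3 was in 10 of 11 E12 endothelial lists, no E12 input, 1 P6 and 1 adult kidney endothelial list, all 3 P6 lung inputs and 1 adult lung input.

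Near Irx5, a region at -42.1 kb from the gene (chr8:92314862-92315701) was in 2 of 3 E12 brain, 3 of 4 E12 heart, 2 of 3 P6 brain, 3 of 3 P6 retina and 1 of 2 P6 heart endothelial lists. It was in 3 inputs and in no trunk, lung, liver, kidney or adult endothelial list. A pair of small regions beside each other separated lung from kidney at P6: chr8:92368095-92368471 was in both lung endothelial lists (folds 3.41 and 3.52) and chr8:92368971-92369258 in both kidney ones (2.91 and 3.1). Neither was in any other list, the lung lists again had their own form of aligned-file name, and with −log10 q of 2.49 to 3.42 both were weak. A region 2.77 kb from Irx5 was, among adult endothelial lists, in both of kidney alone, and in 0 of 2 adult kidney inputs. It was also in 4 E12 endothelial lists (brain 1, heart 2, trunk 1), 1 each of P6 heart and kidney, all 3 P6 lung inputs, 1 P6 kidney input and 1 adult lung input.

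**Figure D3:**
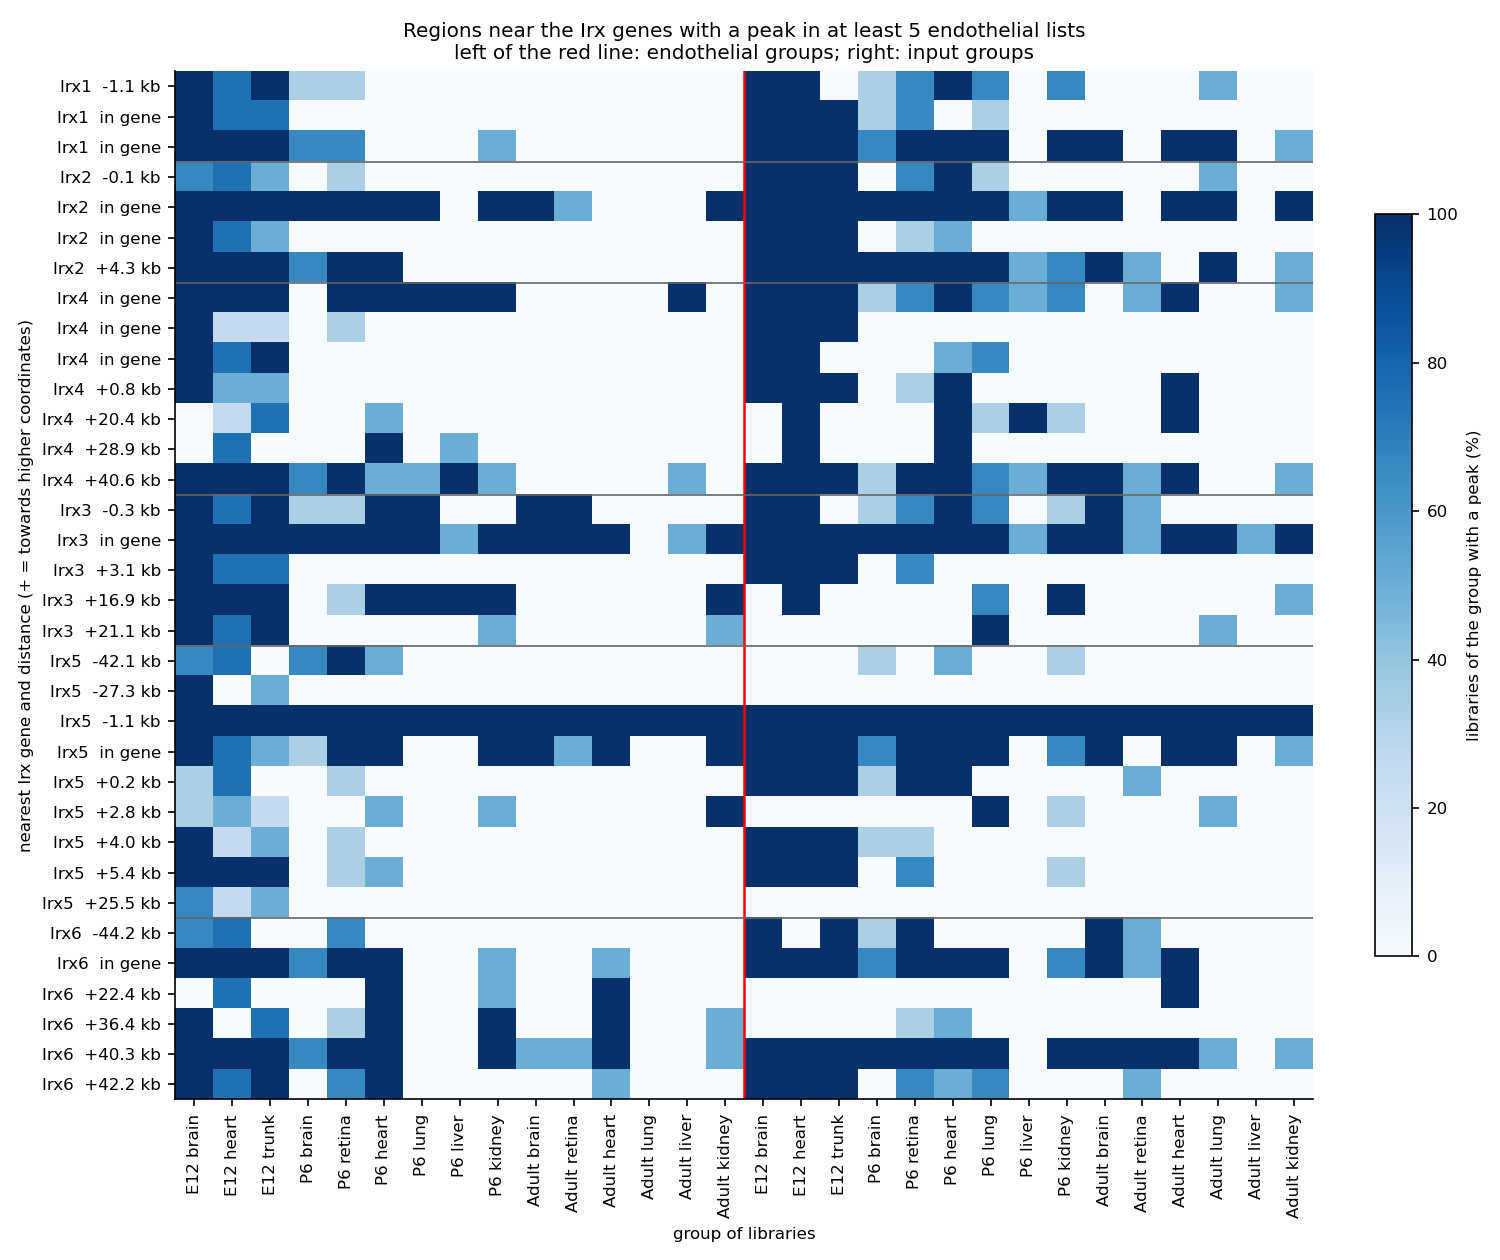
Share of the libraries of each group (colour, %) with a peak in each region near an Irx gene that was in at least 5 endothelial lists; each line gives the gene and the distance from it in kb, each column one of the organ-by-age groups, endothelial left and input right of the red line. The line at -1.11 kb from Irx5 is filled in every group, and the line 22.4 kb from Irx6 is filled in heart.

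Irx3 was the Iroquois gene with the most transcripts in brain endothelial cells. Barcodes with at least 200 genes, at most 10% mitochondrial UMIs and a UMI of at least 3 of the 6 endothelial markers numbered, from the youngest library to the oldest, 5644, 6347, 3786, 4778 and 3154, out of 42340 barcodes in all. Their median depth was 7158, 10469, 9017, 8468 and 4896 UMIs. Each age is 1 library with no replicate, so intervals are exact 95% and cover counting error only, and age, library and dissection (whole brain or cortex) cannot be told apart. Only 127 barcodes occurred in more than 1 library.

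In the same order of ages, Irx3 gave 562, 1847, 701, 193 and 35 UMIs. Scaled to counts per 1000000 UMIs (CPM), that was 12.3 (11.3 to 13.3), 23 (21.9 to 24.1), 16.5 (15.3 to 17.8), 3.19 (2.76 to 3.68) and 1.51 (1.05 to 2.09). The Poisson intervals of these libraries do not overlap. E12.5 was 15.3-fold above the adult (10.9 to 22), and the largest step between neighbouring ages was 5.17-fold from E16.5 to P8 (4.4 to 6.09). Of the 13504 genes with at least 100 UMIs over all libraries, 12.7% were at least 4-fold lower in the adult than at E12.5 and 13.2% at least 4-fold higher, and 5.47% fell by at least as many fold as Irx3. The share of cells with an Irx3 UMI was 8.52%, 19.6%, 12.4%, 3.18% and 0.919%. Thinned to 2000 UMIs a cell, the levels were 12.1, 24.3, 16.9, 3.2 and 1.17 CPM, in the same order, after 272 cells at E9.5, 96 at P8 and 172 in the adult were left out as shallower. Without barcodes holding at least 2 markers of another class, Irx3 was 15.7 CPM at E16.5, 4.87 at P8 and 0.947 in the adult, so that the step from P8 to the adult became the larger one.

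At E12.5 the Irx3 level followed the endothelial markers. Cells with all 6 markers had 23.7 CPM and cells with none 4.67. Just outside the gate, cells with 2 markers had 2.1, and just inside it, cells with 3 had 3.95. Cells named from other markers held little. The 564 microglia-marker cells had 4 UMIs (0.948 CPM, 0.258 to 2.43; 0.709% of cells at a median of 6926 UMIs), and the 452 erythroid-marker cells had 16 (4.55, 2.6 to 7.39; 2.43% of cells at 7554). The endothelial share of 19.6%, at a median of 10469 UMIs, was above the share in both classes. Erythroid transcripts lay in most of these endothelial cells: 96.8% of the gated E12.5 cells held at least 2 erythroid markers. In the 159 gated cells with fewer than 2 markers of every other class Irx3 was 18.3 CPM.

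E9.5 was different. There Irx3 was highest in cells without any endothelial marker, 25.8 CPM, and in cells with all 6 it was 10.6. The 316 cells with epithelial markers had 44 CPM (35.8 to 53.6), above the endothelial 12.3. The 312 erythroid-marker cells had 8.53 (3.9 to 16.2), and their interval overlapped that of the endothelial cells. The microglia-marker cells had 0 UMIs, which allowed up to 2.99 CPM, below the endothelial interval. The other classes thus lay both above and below the endothelial cells, and free RNA as their source was not tested. At E16.5 no other class reached 50 cells. At P8 and in the adult the pericyte-marker cells, 86 and 103, had 0 Irx3 UMIs, which allowed up to 8.57 and 7.23 CPM, above the endothelial values.

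**Figure D4:**
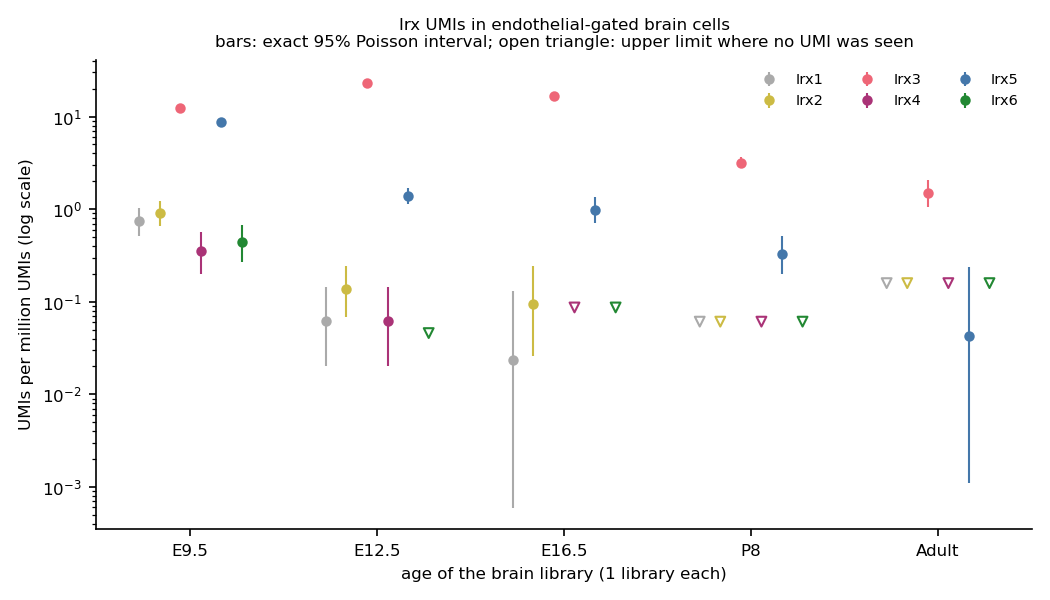
CPM (log axis) of each Irx gene in the endothelial-gated cells of the 5 brain libraries, with exact 95% Poisson intervals; open triangles are upper limits where no UMI was seen. Irx3 is the highest member at every age and peaks at 23 at E12.5, and 4 members reach 0 UMIs at P8 and in the adult.

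Irx5, the neighbour of Irx3 in its cluster, gave 400, 112, 42, 20 and 1 UMIs at the 5 ages. That was 8.74 CPM at E9.5 (7.91 to 9.64), 1.39 (1.15 to 1.68), 0.989 (0.712 to 1.34), 0.331 (0.202 to 0.511) and 0.043 (0.00109 to 0.24) in the adult. The order of the later ages was not stable: thinned, Irx5 was 0.264 at E16.5 and 0.854 at P8. Without barcodes holding at least 2 markers of another class it was 0 at E12.5, from 159 cells, and 0.41 at E16.5. The early level was not particular to cells with endothelial markers. At E9.5 the epithelial-marker cells had 20.9 (15.4 to 27.8), above the endothelial interval, and the erythroid-marker cells 13.3 (7.25 to 22.3). Cells of that age with no endothelial marker had 14.7 and cells with all 6 had 5.74, while microglia-marker cells had 2.43 (0.502 to 7.11). At E12.5 the erythroid-marker cells had 1.42 (0.462 to 3.32), beside 1.39 in the endothelial cells, and the microglia-marker cells had 0 (up to 0.874). The erythroid-marker interval held the endothelial Irx5 value at both ages. At E12.5, 94 cells had an Irx5 UMI and 56 of them also an Irx3 UMI. That was 59.6% of the Irx5 cells and 4.5% of the Irx3 cells, where 19.6% of all gated cells had Irx3. At E9.5, with 307 Irx5 cells, 10.7% of them had an Irx3 UMI, beside 8.52% of all gated cells. At E16.5 it was 68.6% of 35 Irx5 cells beside 12.4%, and at P8 44.4% of 18 beside 3.18%. At E12.5 the Irx5 cells were deeper, with a median of 15686 UMIs against 10469 over all gated cells, which raises every co-detection.

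**Figure D5:**
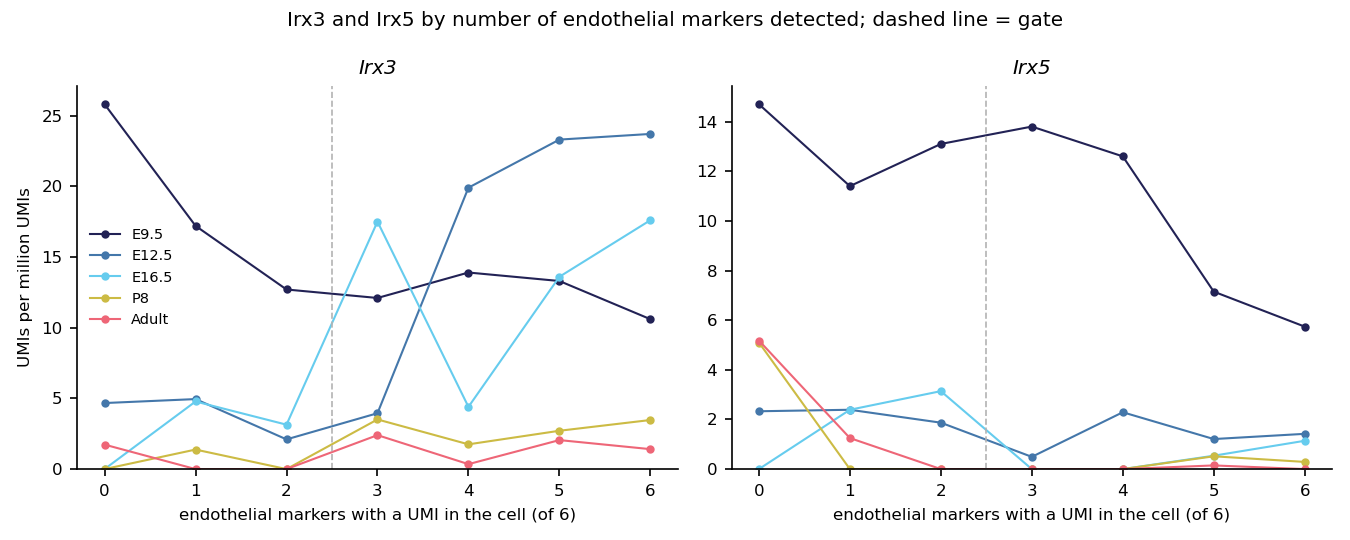
CPM of Irx3 (left) and Irx5 (right) against the number of the 6 endothelial markers seen in a cell, one line per library; the dashed line is the gate. The E12.5 line of Irx3 goes from 4.67 with no marker to 23.7 with 6, while the E9.5 lines of Irx3 and Irx5 are highest with none.

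Irx1, Irx2, Irx4 and Irx6 were nearly silent in these cells. At E9.5 they gave 34, 42, 16 and 20 UMIs, or 0.743, 0.918, 0.35 and 0.437 CPM, and at E12.5 they gave 5, 11, 5 and 0. At P8 and in the adult all 4 were at 0, which allowed up to 0.061 and 0.159 CPM. The epithelial-marker cells at E9.5 had 18.2 CPM of Irx1, 21.8 of Irx2 and 11.1 of Irx4. All 5 Irx4 UMIs at E12.5 came from 1 cell. These 4 genes had gene peaks in every E12 brain endothelial list, with 5, 3 and 3 window peaks at Irx1 and 7, 10 and 8 at Irx4, so peaks in that organ were seen beside transcript levels of 0.137 CPM or less. The E12 brain input had 6 window peaks at Irx1 and 8 at Irx4. In the E12 brain endothelial lists, 6 of 6 brain neuron and glia markers and 5 of 6 pericyte markers also had a peak. Neither count set brain apart. Over all 11 E12 endothelial lists, Snap25, Syt1, Gad1 and Mbp had a peak in 11, Rbfox3 in 10 and Olig2 in 9. The E12 heart and trunk endothelial lists also had 5 of 6 pericyte markers. The part of other cells in the Irx peaks was not tested.

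For the adult brain, Irx3 was seen in both readouts, as gene peaks and as UMIs, and Irx1, Irx4 and Irx6 in neither. Irx2 and Irx5 had gene peaks with almost no UMIs. The share of all genes with such patterns is not given here. Both adult brain endothelial lists had gene peaks at Irx2, Irx3 and Irx5 and none at Irx1, Irx4 or Irx6. Of the 3 genes with peaks, Irx3 had 35 UMIs, Irx5 had 1 and Irx2 had 0. The Irx3 window held 5, 7 and 6 peaks in E12 brain endothelium, 1, 2 and 2 at P6 and 3 and 2 in adults. Per 10000 peaks the means were 0.554 at E12, 0.283 at P6 and 0.612 in adults. The adult mean was thus not below that of E12, while Irx3 transcripts were 23 CPM at E12.5 and 1.51 in the adult.

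Among the 12 other TALE homeobox genes (Meis, Pbx, Pknox, Tgif and Mkx), 11 had a gene peak in all E12 endothelial lists, 10 in all P6 and 7 in all adult ones; Pbx2 was the lowest in adults with 2 of 12. In the E12.5 endothelial cells Tgif1, a repressor of TGF-β and retinoid signalling, was highest at 56.2 CPM and Mkx lowest at 0.212, beside 23 for Irx3. In the adult the lowest was Pbx4 at 0.043, beside 1.51 for Irx3. Meis2, the highest of them at E9.5, had 57.6 there and 5.04 at E12.5, while Irx3 had 12.3 and 23. Among the 15 fixed neighbours of the clusters, Slc6a2, a noradrenaline transporter gene beyond Irx6, had the fewest adult endothelial gene peaks, 1 of 12, after 11 of 11 at E12. Fto, whose introns are known to hold elements that contact Irx3, was 1 of 9 neighbours with 12 of 12.

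Over the 15 endothelial group means, normalised window peaks at Irx1 correlated most with those at Anxa10 (Pearson r = 0.98), Hsd3b4 (0.98) and Gm10681 (0.97), and at Irx2 with Col4a5 (0.92), Col4a6 (0.92) and Shh (0.91). The best matches were Gzma (0.79), B3galnt1 (0.79) and Itprid2 (0.78) for Irx3, and Htr1f (0.94), Slc38a4 (0.94) and Kcng3 (0.93) for Irx4. For Irx5 they were Khdc1a (0.83), St8sia6 (0.82) and C77080 (0.81), and for Irx6 Dsg1c (0.89), Ttc9 (0.88) and Kcna5 (0.87). These are the highest of up to 20775 genes ranked on 15 points that share libraries and list lengths. Within the family, r was 0.75 for Irx1 and Irx4, 0.74 for Irx1 and Irx2 and 0.48 for Irx2 and Irx4 on chromosome 13, and 0.58, 0.58 and 0.35 for Irx3 with Irx5, Irx5 with Irx6 and Irx3 with Irx6 on chromosome 8. Between the clusters it ran from -0.03 (Irx4 and Irx5) to 0.61 (Irx2 and Irx3), so the ranges within and between clusters overlapped.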

How the data were processed

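Open chromatin was measured in 66 ATAC libraries and transcripts in 5 single-cell libraries; 54 bulk RNA tables were not used, since no table here pairs their transcripts with genes. The authors aligned ATAC reads with Bowtie2 to mm10 (submitters' processing notes) and called broad peaks per library with MACS2, per the file headers. The deposited lists hold pileup (signal), fold enrichment (a ratio), −log10 p and −log10 q per peak. The authors' single-cell counts are Cell Ranger UMI counts per gene and barcode, per the submitters' processing notes.

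The members and lists were chosen with earlier results of these data known. Peaks were intersected with the GRCm38.p6 gene table in Python 3.11.15 with pandas 2.3.3, numpy 2.4.6 and scipy 1.17.1. A gene peak within 500 bp of the 5′ end was planned, but that table has no strand, so a peak within 500 bp of the gene was used. Regions are peaks merged over all lists. No test was run. The genes named are all 6 members, the highest and lowest of the fixed TALE and neighbour lists, and the closest genes by correlation. One value of the TALE list is not reported here. E16.5 has no gene table of its own and follows the order shared by the other 4. Code for overlaps, merging and thinning was tested on simulated data. No doublet caller was run; barcodes with markers of another class were left out as an alternative, as were shared ones.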

Additional observations from a re-analysis of the deposited data

Results flagged for a closer look

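For some members the endothelial lists of one organ all lay above its inputs while those of another organ all lay below, in window peaks per 10000 peaks (endothelial minus input mean). Whether the organs differed was not tested. At P6 the Irx5 difference was 0.379 in kidney, against -0.29 in heart, -0.327 in lung and -0.0705 in liver. The P6 Irx6 difference was 0.384 in heart and 0.275 in kidney, against -0.286 in lung. In adults Irx3 had 0.442 in retina and -0.336 in lung, and Irx5 had 0.672 in kidney and -0.19 in lung. Each rests on 2 or 3 lists a side. Separation within a single organ was common over all genes. The share of genes with opposite directions in different organs is not given here. At P6 every endothelial list lay above every input for 17.9% of genes in kidney and 40.4% in heart, and below for 27.1% in heart, 19.2% in lung and 27.7% in liver. In adults it lay above for 13.9% in retina and 22.6% in kidney, and below for 14.4% in lung.

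The noncoding transcript Irx3os, which is not a member, gave 36 UMIs in the E9.5 endothelial cells, 88 at E12.5 and 28 at E16.5. At P8 it gave 2 and in the adult 0, and the erythroid-marker cells of E12.5 gave 0.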

How the results depend on the processing

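No paired analysis was possible because no result comes from a test. The labels also do not say whether endothelial and input libraries with the same number come from the same animals. Of the values recomputed for the main comparisons, 676 stayed within the replicate spread, interval or 1.5-fold range, 55 moved beyond it and 6 turned sign; the cause was not tested. Gene peaks with −log10 q of at least 5 were in 6 (Irx1), 14 (Irx4) and 15 (Irx5) of 37 endothelial lists, and in 10 (Irx1), 10 (Irx4), 12 (Irx5) and 11 (Irx6) of 29 inputs. Among the 19464 strongest peaks per list they were in 0 (Irx1), 17 (Irx2), 9 (Irx3), 4 (Irx4), 7 (Irx5) and 0 (Irx6) endothelial lists and 1 (Irx1), 10 (Irx3), 0 (Irx4), 1 (Irx5) and 2 (Irx6) inputs. Within 500 bp of the annotated 5′ end Irx4 had a peak in 0 endothelial lists and 5 inputs, and within 2 kb of the gene Irx5 had one in 37. The E12-minus-adult difference per 10000 peaks turned negative among the strongest peaks for Irx3 (-0.0195), Irx4 (-0.0856), Irx5 (-0.035) and Irx6 (-0.0662), and for Irx5 at −log10 q of at least 5 (-0.195) and in a 20 kb window (-0.0888). For Irx1 it was 0.192 at that −log10 q and 0 among the strongest peaks; at that −log10 q Irx3 had 0.0212 and Irx6 0.38. In a 20 kb window it was 0.0707 (Irx3), 0.32 (Irx4) and 0.113 (Irx6), and in a 100 kb window 0.482 (Irx3), 0.248 (Irx4), 0.428 (Irx5) and 0.814 (Irx6). Leaving out 1 library gave 0.222 to 0.362 for Irx6, the highest without adult heart endothelial replicate 2, and 0.062 to 0.147 for Irx5 around 0.0901, the highest without adult kidney endothelial replicate 1. Organ-restricted regions numbered 13 (1 kb bins) and 2 (strongest peaks) at E12, 4 (−log10 q of at least 5) and 1 (strongest peaks) at P6, and 2 in adults with 50% cover. In brain cells, Irx3 CPM was 14.1 at E9.5 and 3.98 at P8 with at most 5% mitochondrial UMIs, and Irx5 was 0.796 at P8. With 4 markers required Irx5 at E9.5 was 7.88. Thinned, Irx3 at E12.5 was 24.3, and Irx5 was 0.854 at P8, 0.264 at E16.5 and 10.1 at E9.5. Without barcodes holding at least 2 markers of another class, Irx3 was 18.3 at E12.5, 4.87 at P8 and 0.947 in the adult, and Irx5 was 0 at E12.5 and in the adult, 0.562 at P8 and 0.41 at E16.5. With erythroid markers allowed, chosen after seeing the data, Irx3 was 24.9 at E12.5 and Irx5 0 in the adult. Short adult lists limit what could be seen at weak peaks, and 1 library per age limits the brain cells.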
